A study of Mus musculus with 3 samples.

Results

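The TALE homeobox genes *Meis1*, *Meis2*, *Meis3*, *Pbx2*, *Pbx3*, *Pbx4*, *Pknox1* and *Pknox2* were chosen by symbol, and all 8 were found among the 33353 genes of the table. They were described in 2060 cells that the study kept as enteric neurons, from a sort of tdTomato-positive cells of the longitudinal muscle and myenteric plexus of the small intestine of 3 *Ednrb*-/- mice. All mice were of postnatal day 14 and labelled as strain C57BL/6 (the methods name founder lines of partly mixed background), served as a model of Hirschsprung disease, lacked the endothelin receptor B gene and carried a Wnt1-Cre that switches on a GCaMP5-tdTomato reporter, so the label marks cells of neural crest descent rather than neurons alone. Each mouse gave 1 library, there was 1 condition and no wild-type mouse was analysed here. A cell was positive for a gene at 1 or more unique molecular identifier (UMI, 1 captured RNA molecule), and a level is the number of its UMIs among every 10000 UMIs of a group of cells.

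TALE proteins carry a homeodomain, the DNA-binding fold of Hox proteins, with 3 extra amino acids in the loop after its first helix. Pbx proteins bind DNA together with Hox proteins, and Meis and Pknox proteins bind Pbx proteins, which holds them in the nucleus and widens the choice of DNA sites. In the gut wall these genes are used by enteric neurons and their precursors, and *Meis* and *Pbx* genes also by smooth muscle, so no cell type that should lack them was at hand as a background for free RNA.

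The coding stretch that sets TALE genes apart is shown for every gene, since it is what the name refers to and what sorts the genes into their subfamilies. The capitals mark the 3 codons of the inserted loop, and each run of 84 bases (28 codons, 5′ to 3′, GENCODE M21 transcripts on GRCm38) reaches into the helix that reads DNA.
Meis1: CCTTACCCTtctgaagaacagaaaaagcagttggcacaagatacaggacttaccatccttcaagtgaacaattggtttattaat
Meis2: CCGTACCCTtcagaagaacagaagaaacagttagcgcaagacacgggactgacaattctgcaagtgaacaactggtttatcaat
Meis3: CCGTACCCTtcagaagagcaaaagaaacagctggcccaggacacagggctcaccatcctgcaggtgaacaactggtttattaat
Pbx2: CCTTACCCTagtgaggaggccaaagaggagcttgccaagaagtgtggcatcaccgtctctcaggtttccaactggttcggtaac
Pbx3: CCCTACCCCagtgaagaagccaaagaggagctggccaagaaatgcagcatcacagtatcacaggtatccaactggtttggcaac
Pbx4: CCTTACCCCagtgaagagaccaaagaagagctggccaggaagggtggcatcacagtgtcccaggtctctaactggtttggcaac
Pknox1: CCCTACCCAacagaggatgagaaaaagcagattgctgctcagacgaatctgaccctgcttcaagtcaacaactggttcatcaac
Pknox2: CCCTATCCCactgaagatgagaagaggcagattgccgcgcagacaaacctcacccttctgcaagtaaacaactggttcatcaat

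Within a subfamily 69 to 71 of the 84 bases were identical. Between subfamilies there were 54 to 59 identical bases for Meis with Pknox, 43 to 52 for Meis with Pbx and 45 to 51 for Pbx with Pknox. In every gene 2 exons share the stretch. The first of them held 74 bases in the Meis and Pknox genes and 63 in the Pbx genes. On GRCm38 the stretch of *Meis1* lies at chr11:18905689-18905762 (exon 9 of 12) and chr11:18885642-18885651 (exon 10), minus strand. That of *Meis2* lies at chr2:115921672-115921745 (exon 9 of 12) and chr2:115868794-115868803 (exon 10), minus strand. That of *Meis3* lies at chr7:16183794-16183867 (exon 9 of 13) and chr7:16184038-16184047 (exon 10), plus strand. The stretch of *Pbx2* lies at chr17:34594655-34594717 (exon 5 of 9) and chr17:34594801-34594821 (exon 6), plus strand. That of *Pbx3* lies at chr2:34204780-34204842 (exon 5 of 9) and chr2:34178322-34178342 (exon 6), minus strand. That of *Pbx4* lies at chr8:69866541-69866603 (exon 5 of 8) and chr8:69870029-69870049 (exon 6), plus strand. The stretch of *Pknox1* lies at chr17:31602789-31602862 (exon 9 of 11) and chr17:31603187-31603196 (exon 10), plus strand. That of *Pknox2* lies at chr9:36895311-36895384 (exon 11 of 13) and chr9:36894489-36894498 (exon 12), minus strand. In the annotation *Pbx2* overlaps *Gpsm3* on the same strand, so its UMIs may include some of that gene. *Meis1* overlaps 3 same-strand gene models (*2610001A08Rik*, *2900018N21Rik* and *Gm37818*), *Pknox1* overlaps 1 (*AC166575.1*) and *Pknox2* 1 (*Gm48717*), and the same holds for them.

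Most cells held a member, but few held many UMIs of one. *Pknox1* was detected in 606 cells (29.4%), *Meis1* in 594 (28.8%), *Pbx2* in 445 (21.6%) and *Meis3* in 399 (19.4%). *Pbx3* was detected in 193 cells (9.37%), *Pbx4* in 190 (9.22%), *Meis2* in 164 (7.96%) and *Pknox2* in 146 (7.09%). At least 1 member was found in 54.5%, 76.4% and 78.4% of the cells of mice 1, 2 and 3, and 551 cells had none. Detection moved with depth, as the median was 5199 UMIs in the cells without a member and 11900 in the 232 cells with 3 of them. Only 185 cells had 2 or more UMIs of *Meis1*, and 13 had as many of *Pknox2*. UMIs were not divided by gene length, and no order of level between genes is drawn from them.

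The libraries held 354, 1050 and 656 cells in mice 1, 2 and 3, and the median cell had 3734.5, 9599.5 and 9578.5 UMIs. Mouse 1 also stood apart in a list of 10 smooth muscle markers (*Acta2*, *Myh11* and others), whose summed level was 65.9 per 10000 there and 16.0 and 10.9 in mice 2 and 3. Cells in which that list passed 50 per 10000 numbered 82, 46 and 31 in mice 1, 2 and 3 and are called cells of high smooth muscle level. Member changes called or discussed for these cells are given with and without them. Of the cell barcodes, 4 cells shared theirs with a cell of another library.

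The cell groups follow branch and subtype genes. *Etv1* and *Bnc2* encode transcription factors of the main branches of myenteric neurons, *Nmu* encodes the peptide neuromedin U of sensory neurons, *Slc17a6* the vesicular glutamate transporter VGLUT2, and *Sox10* a factor of neural crest precursors and glia. There were 1075 Etv1-only cells (*Etv1* detected and *Bnc2* not), 332 Bnc2-only cells, 200 Nmu-positive, 39 Slc17a6-positive and 1088 Sox10-positive cells. Groups overlap, with 30 of the 39 Slc17a6-positive cells also Etv1-only and none Bnc2-only, and they come from the same 3 mice. All comparisons below used UMIs summed over the cells of a group in each mouse and limma voom with the mouse as a block, with p-values adjusted by Benjamini-Hochberg over all genes tested, and a gene was called at an adjusted p under 0.05 (two-sided).

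**Figure D1:**
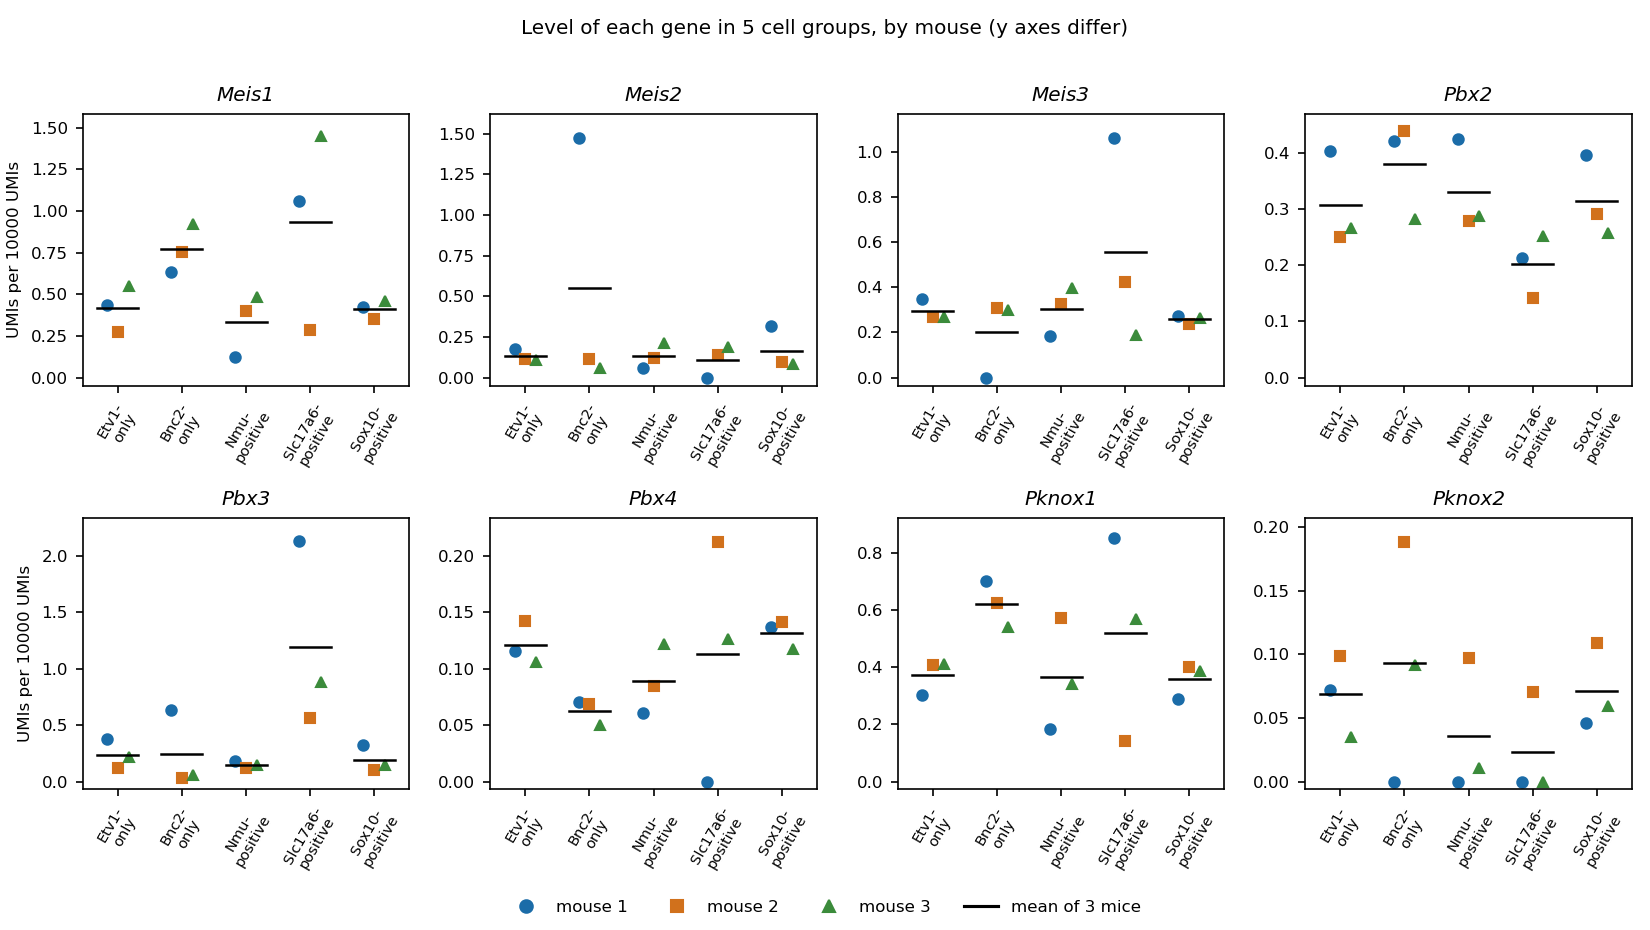
Level of each TALE gene (UMIs per 10000 UMIs, own y axis per gene) in 5 cell groups, 1 point per mouse and a bar at the mean of 3 mice. *Meis1* is higher in Bnc2-only than in Etv1-only cells of each mouse, *Pbx3* is highest in Slc17a6-positive cells, and the high *Meis2* point of Bnc2-only cells is mouse 1.

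Of the Meis genes, which encode partners of Pbx and Hox proteins, *Meis1* was lower in Etv1-only than in Bnc2-only cells. Its level in Etv1-only cells was 0.433, 0.275 and 0.551 per 10000 in mice 1, 2 and 3. In Bnc2-only cells it was 0.631, 0.754 and 0.924. Bnc2-only cells were higher in each of the 3 mice, and the ranges of the groups did not overlap. The share of *Meis1*-positive cells was 24 of 161, 117 of 594 and 98 of 320 Etv1-only cells against 7 of 28, 84 of 182 and 68 of 122 Bnc2-only cells. In mice 2 and 3 the exact 95% intervals, which cover counting error only, lay apart (16.6% to 23.1% against 38.8% to 53.7% in mouse 2, and 25.6% to 36.0% against 46.5% to 64.7% in mouse 3), whereas in mouse 1 they overlapped. The fitted change was −1.05 on the log2 scale (SE 0.21, limma voom adjusted p = 0.0092, lower in 3 of 3 mice).

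*Meis1* was the only member called in this comparison, 1 of 8, beside 5.69% of all 14210 genes tested. Branch genes separated the groups. All 5 inhibitory genes of a fixed list were higher in Etv1-only cells, *Nos1* (nitric oxide synthase) by 4.86 on the log2 scale. Of 5 excitatory genes 4 were lower, *Chat* (acetylcholine synthesis) at −3.48, and 5 of 10 glial markers were higher in Etv1-only cells. Cells were also thinned to 3000 UMIs each, and the groups set anew from the thinned UMIs. *Meis1* was then at 0.519, 0.324 and 0.747 in Etv1-only cells and 0.333, 0.812 and 1.5 in Bnc2-only cells. Mouse 1, with 20 Bnc2-only cells by that rule, had the opposite order, while the fit over the mice kept the call (−0.99, limma voom adjusted p = 0.0137). The change was negative in 14 of 14 other settings (−1.28 to −0.71), of which 9 kept the call. It was lost without the block (−1.04, adjusted p = 0.183), without Sox10-positive cells (−0.84, 0.066), with limma trend on log2(CPM + 10) (−0.77, 0.269), with an offset in proportion to the summed UMIs (−1.04, 0.166), and without mouse 2 (−0.71, 0.653). Without cells of high smooth muscle level it was −1.02 (adjusted p = 0.000304).

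*Pbx3*, a Hox cofactor known for its part in the maturation of myenteric neurons, had the other order in 2 of 3 mice. Its level was 0.376, 0.120 and 0.219 in Etv1-only cells and 0.631, 0.0343 and 0.0583 in Bnc2-only cells of mice 1, 2 and 3. Mice 2 and 3 were higher in Etv1-only cells, and mouse 1 was lower, on 9 UMIs in 28 Bnc2-only cells. The fitted change was 1.07 (SE 0.46, adjusted p = 0.223) and was not called. The smooth muscle list stood at 138 per 10000 in the Bnc2-only cells of mouse 1 and at 17.0 and 6.58 in those of mice 2 and 3. Without the cells of high smooth muscle level the change was 1.95 (adjusted p = 0.00202), and without mouse 1 it was 1.77 (adjusted p = 0.000683). What those cells contribute beyond this was not tested.

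*Pknox1*, a Meis relative that also binds Pbx proteins, was at 0.303, 0.407 and 0.409 in Etv1-only cells. In Bnc2-only cells it was at 0.702, 0.623 and 0.541. The ranges lay apart and each mouse was lower in Etv1-only cells, but the change of −0.60 (SE 0.20, adjusted p = 0.105) did not pass. It passed without cells of high smooth muscle level (−0.63, adjusted p = 0.0216) and without mouse 1 (−0.54, adjusted p = 0.00403).

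*Pbx4* was the reverse, at 0.116, 0.142 and 0.106 in Etv1-only cells. In Bnc2-only cells it was at 0.0702, 0.0686 and 0.05, on 1, 12 and 6 UMIs. The ranges again lay apart, and the change of 0.90 (SE 0.36, adjusted p = 0.188) did not pass. The other members had adjusted p-values of 0.192 (*Pknox2*, log2 change −0.90), 0.28 (*Pbx2*, −0.48), 0.591 (*Meis2*, −0.57) and 0.998 (*Meis3*, 0.00 within rounding). The sign of *Meis2* was kept in 10 of 14 other settings (−1.10 to 0.40), and without cells of high smooth muscle level it was 0.21 (adjusted p = 0.825). *Pknox2* passed without mouse 1 (−1.04, adjusted p = 0.00557) and at 2 UMIs for a positive cell, a fit that also lacks mouse 1 because 3 Bnc2-only cells remained there (−0.95, adjusted p = 0.0458), and *Pbx2* without mouse 1 (−0.56, adjusted p = 0.0184). *Meis3* had 0 UMIs in the 28 Bnc2-only cells of mouse 1, where the limit set by 3 counts of the total is 10.7% of cells with a UMI, and had a UMI in 24.7% and 24.6% of those of mice 2 and 3. The median Bnc2-only cell had 4273 UMIs in mouse 1 and 9694 and 10792 in mice 2 and 3. In thinned cells, with groups set anew, *Meis3* was in 1 of 20, 19 of 119 and 6 of 89 Bnc2-only cells.

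**Figure D2:**
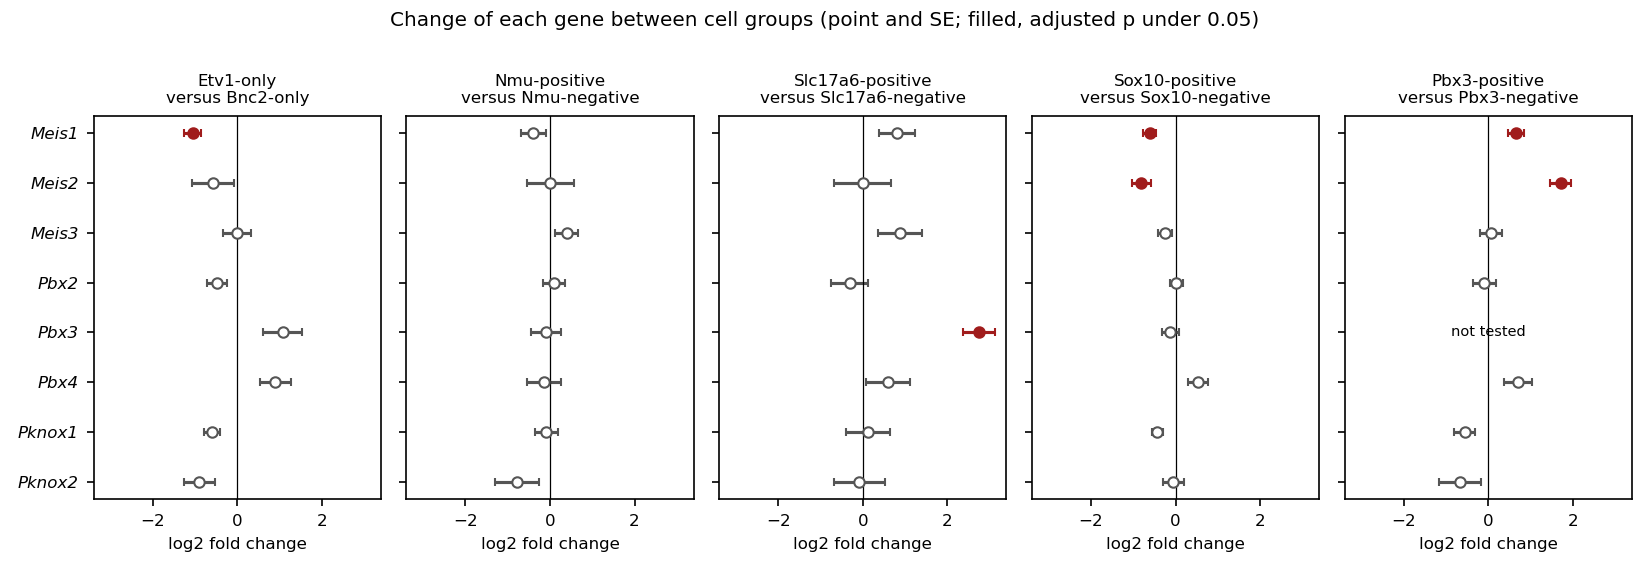
Log2 fold change of each TALE gene (point, with the SE of the limma voom fit over 3 mice) in 5 comparisons of cell groups, filled where the adjusted p is under 0.05. *Meis1* is called in 3 comparisons, *Meis2* in 2 and *Pbx3* in 1, and no gene is called between Nmu-positive and Nmu-negative cells.

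The Slc17a6-positive cells, which hold the transcript of a glutamate transporter, stood out for *Pbx3*. *Pbx3* was in 6 of 10, 4 of 13 and 7 of 16 of them in mice 1, 2 and 3, or 60%, 30.8% and 43.8%, with exact 95% intervals of 26.2% to 87.8%, 9.09% to 61.4% and 19.8% to 70.1%. In the Slc17a6-negative cells of the same mice it was in 9.59%, 7.71% and 9.84%. Its level was 2.13, 0.566 and 0.883 per 10000 in Slc17a6-positive cells, on 10, 8 and 14 UMIs, and 0.311, 0.0969 and 0.131 in Slc17a6-negative cells. Each mouse was higher in the positive cells, and the ranges did not overlap. The positive cells were deeper in each mouse, with medians of 4304.5, 11562 and 10404.5 UMIs in the positive cells and 3709, 9579 and 9511.5 in the negative ones.

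The fitted change of *Pbx3* was 2.75 on the log2 scale (SE 0.38, limma voom adjusted p = 0.0116, higher in 3 of 3 mice). It was the only member called, 1 of 8, beside 2.95% of all 14888 genes tested (429 higher and 10 lower). The positive sums are far smaller than the negative ones, and the median change over all genes was 0.29. Sums simulated with known changes gave many false calls at this minimum of 10 UMIs and few at 100. They were drawn without differences between mice other than size, so they do not show how the fit does where mice differ. Among genes with 100 or more UMIs the median was 0.07, the change of *Pbx3* was 2.75 (adjusted p = 2.13e-06) and 3.93% of 10936 genes were called (370 higher and 60 lower). The call was lost with limma trend (2.09, adjusted p = 0.174), with the proportional offset (2.68, 0.0761, median of all genes −0.73), without the block (2.81, 0.0691), and without mouse 1 (2.72, 0.192), all with a change of the same sign. Removing the cells of high smooth muscle level left mouse 1 with 9 positive cells and so took that mouse out too, and this fit of mice 2 and 3 (2.87, 0.138) does not separate both steps. The smooth muscle list was at 19.3, 20.5 and 10.0 in the Slc17a6-positive cells, against 67.4, 15.9 and 10.9 in the others.

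Of the Etv1-only cells 30 were Slc17a6-positive, and there *Pbx3* had the same order in each mouse. *Pbx3* was at 2.34, 0.829 and 1.25 in the 9, 9 and 12 cells that were both Etv1-only and Slc17a6-positive. In Etv1-only cells without *Slc17a6* it was at 0.260, 0.109 and 0.183. These groups fell under the minimum of 10 cells in 2 mice and were not tested. Thinned to 3000 UMIs, only 7, 6 and 9 Slc17a6-positive cells remained, and 3, 2 and 2 of them held *Pbx3*, which was in 10.1%, 3.32% and 3.60% of all cells.

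*Meis1* was at 1.06, 0.283 and 1.45 in the Slc17a6-positive cells and at 0.5, 0.399 and 0.595 in the others, higher in 2 of 3 mice, with a change of 0.81 (SE 0.42, adjusted p = 0.265). *Meis3* was also higher in 2 of 3 mice (0.88, SE 0.53, adjusted p = 0.341). *Pbx2* was lower in each mouse, at 0.213, 0.142 and 0.252 against 0.412, 0.283 and 0.267, on 1, 2 and 4 UMIs, with a change of −0.31 (adjusted p = 0.745). *Pknox2* had 0 UMIs in the 10 and 16 positive cells of mice 1 and 3, where that limit is 30.0% and 18.8%. These limits cover counting error and cells with a UMI, and are no limit on cells that express the gene. Of the excitatory list 1 of 5 genes rose with *Slc17a6*, *Penk* (proenkephalin) at 2.42, and of the inhibitory and sensory lists none was called.

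**Figure D3:**
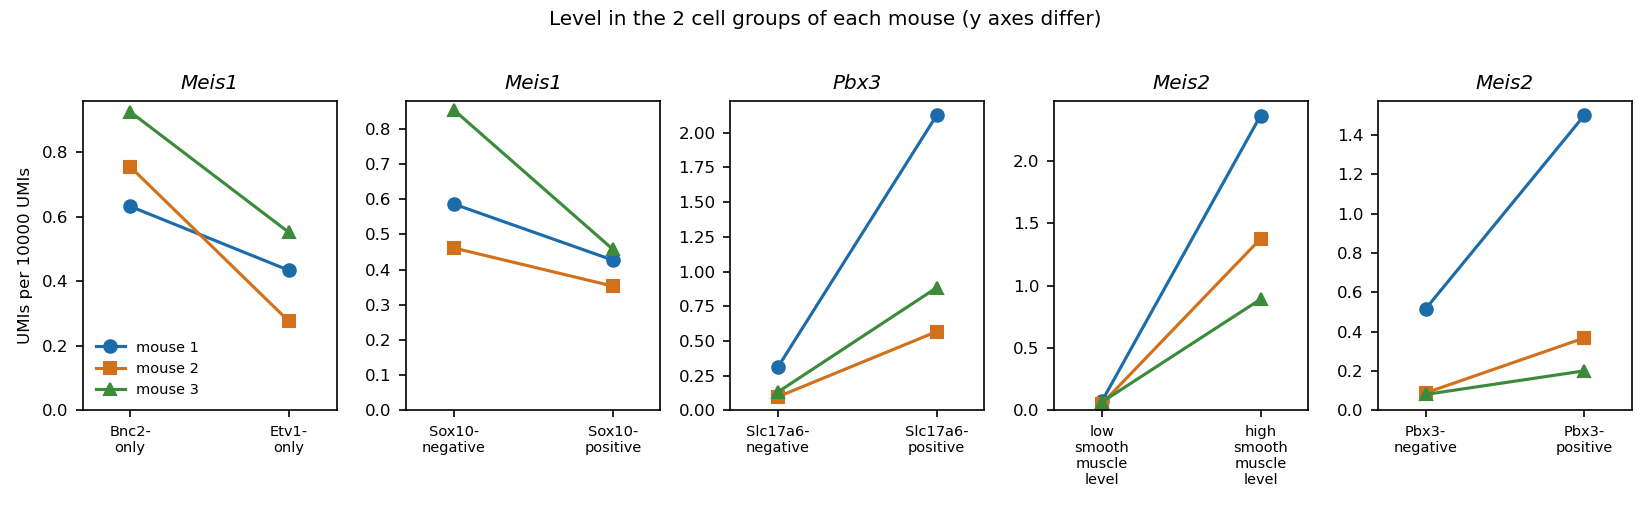
Level (UMIs per 10000 UMIs, own y axis per panel) of *Meis1*, *Pbx3* and *Meis2* in pairs of cell groups, with 1 line per mouse. Each line runs down for *Meis1* from Bnc2-only to Etv1-only and from Sox10-negative to Sox10-positive cells, and up in the panels of *Pbx3* and *Meis2*.

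Sox10-positive cells made up 1088 of the 2060 cells. All 9 other glial genes of a fixed list were higher in them and 9 of 10 neuron genes lower, as were 5 of 5 excitatory and 4 of 5 sensory genes (*Chat* at −1.25 and *Nog* at −1.87). Of the inhibitory list *Gal* was higher (0.44) and *Vip* lower (−0.45). The smooth muscle list had 1 of 10 genes lower (*Myh11*), and the fibroblast list 1 of 6 higher (*Col3a1*). The part of these lists in the members' changes was not tested. Every cell of the table carries the study's label of a neuron. *Meis1* was at 0.427, 0.353 and 0.458 in Sox10-positive cells. In Sox10-negative cells it was at 0.586, 0.461 and 0.853. Each mouse was lower in Sox10-positive cells and the ranges lay just apart, with a change of −0.61 (SE 0.14, limma voom adjusted p = 0.0142). Depth differed, with medians of 3709, 10720.5 and 10072.5 UMIs in Sox10-positive and 3757.5, 8731.5 and 8560.5 in Sox10-negative cells. In thinned cells, with groups set anew, *Meis1* was at 0.251, 0.450 and 0.550 in Sox10-positive cells. Over all thinned cells it was at 0.483, 0.449 and 0.791, so mouse 2 was then not lower.

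*Meis2* was at 0.32, 0.0940 and 0.0832 in Sox10-positive cells and at 0.896, 0.140 and 0.113 in Sox10-negative cells. Each mouse was lower in the Sox10-positive cells, but the ranges overlapped and mouse 1 lay far above the others in both. The change was −0.81 (SE 0.23, limma voom adjusted p = 0.0340). *Meis1* and *Meis2* were thus called, 2 of 8 members, both lower, beside 10.4% of all genes tested (757 higher and 790 lower, or 782 and 518 with median-of-ratios scaling). The smooth muscle list was at 42.5, 15.2 and 12.6 in Sox10-positive and 83.6, 17.2 and 8.38 in Sox10-negative cells. Without the cells of high smooth muscle level the change of *Meis2* was −0.22 (adjusted p = 0.76) and that of *Meis1* −0.53 (adjusted p = 0.0759). Of 13 other settings 5 kept the call of *Meis1* and 3 that of *Meis2*, and both calls were lost in thinned cells. Neither call held when mouse 2 was left out (adjusted p = 0.0609 for *Meis1* and 0.0825 for *Meis2*), that of *Meis1* was lost without mouse 3 (−0.40, 0.309) and that of *Meis2* without mouse 1 (−0.53, 0.126).

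*Pknox1* was at 0.290, 0.399 and 0.385 in Sox10-positive cells and at 0.391, 0.512 and 0.553 in Sox10-negative cells, lower in each mouse with ranges that overlapped. Its change of −0.43 (SE 0.14, adjusted p = 0.0588) missed the threshold and passed among genes with 100 or more UMIs (0.0421) and without mouse 1 (0.0100). *Pbx4* was higher in mice 2 and 3, at 0.142 and 0.117 against 0.0908 and 0.0740, and lower in mouse 1, at 0.137 against 0.149 (0.53, adjusted p = 0.175). The changes of *Meis3*, *Pbx2*, *Pbx3* and *Pknox2* lay between −0.24 and 0.01, with adjusted p-values of 0.402 or more.

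No member was called between Nmu-positive and Nmu-negative cells. The Nmu-positive cells numbered 31, 80 and 89, and all 5 genes of the sensory list rose in them, *Nog* (a secreted BMP inhibitor) by 4.43 and *Calcb* (calcitonin gene-related peptide beta) by 3.20, as did *Kit*, 1 of 2 markers of interstitial cells of Cajal. Of these 200 cells 70 held 2 or more UMIs of *Nmu*, and 89 were also Etv1-only. On average a sensory gene was detected in 58.1%, 17.8% and 25.4% of them, against 3.47%, 4.58% and 7.02% of Nmu-negative cells. The group need not be sensory neurons alone. None of the 8 members was called by limma voom, and 0 of them had an unadjusted p under 0.05, beside 1.05% of all genes called (156 higher and 0 lower). *Meis1* was at 0.122, 0.400 and 0.486 in Nmu-positive cells, on 2, 33 and 44 UMIs, and at 0.565, 0.398 and 0.637 in the others. The order thus differed between mice, and its change was −0.39 (SE 0.29, adjusted p = 0.817), negative in 14 of 14 other settings (−1.40 to −0.19). *Pbx3* stood at 0.182, 0.121 and 0.144 against 0.389, 0.102 and 0.151, with a change of −0.10 (SE 0.36). *Pknox1* stood at 0.182, 0.570 and 0.342 against 0.367, 0.435 and 0.470 (−0.09, SE 0.27). The SEs of the 8 changes ran from 0.27 to 0.55, and limma trend and every other setting tried also called none of the members.

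Cells were then split by *Pbx3* itself, to ask which members were found with it. Pbx3-positive cells numbered 39, 84 and 70 and were deeper, with medians of 4798, 11210 and 11205.5 UMIs against 3672, 9540 and 9294.5. *Meis1* was at 0.919, 0.551 and 0.901 in them. In Pbx3-negative cells it was at 0.455, 0.383 and 0.575. Each mouse was higher in the Pbx3-positive cells, though the ranges overlapped, with a change of 0.66 (SE 0.18, limma voom adjusted p = 0.0131).

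*Meis2* was at 1.5, 0.368 and 0.200 in Pbx3-positive cells and at 0.515, 0.0880 and 0.0802 in Pbx3-negative cells, again higher in each mouse with overlapping ranges. The change was 1.71 (SE 0.25, adjusted p = 1.73e-09), and 7 of 14 other settings kept the call. It was lost with limma trend (1.14, adjusted p = 0.103), the proportional offset (1.68, 0.214), no block (1.67, 0.985), 2 UMIs for a positive cell (0.60, 0.58), thinning (1.14, 0.327) and both removals of smooth muscle cells given below. These 2 of the 7 members tested were called, both higher, beside 3.8% of all genes tested, most of them also higher (427 higher and 139 lower). In the same cells 3 of 6 fibroblast markers rose (*Col3a1* by 0.72, *Col1a2* by 0.81 and *Col1a1* by 0.88), and the fibroblast list was at 23.8, 5.22 and 3.61 per 10000 in Pbx3-positive cells against 13.4, 3.11 and 2.36. *Kdr*, 1 of 3 endothelial markers tested, was also higher (1.60), and 9 of 10 smooth muscle markers rose, and that list was at 132, 42.6 and 11.7 per 10000 in Pbx3-positive cells and at 55.6, 13.4 and 10.8 in Pbx3-negative cells. Without cells of high smooth muscle level *Meis2* was not called (1.06, adjusted p = 0.32). Without all cells in which 5 or more of those markers were detected, a rule that also removes deep neurons, its change turned to −0.38 (adjusted p = 0.925).

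*Meis1* kept its call without the cells of high smooth muscle level (0.69, adjusted p = 0.0434), and 6 of 14 other settings kept it in all. It was lost with limma trend (0.63, adjusted p = 0.236), the proportional offset (0.65, 0.286), 2 UMIs for a positive cell (1.22, 0.085), without Sox10-positive cells (0.64, 0.167), without mouse 2 (0.75, adjusted p = 0.0973), without mouse 3 (0.67, 0.178), without the block (0.985) and in thinned cells (1.60, 0.0927). In thinned cells, where depth is equal, *Meis1* was found in 8 of 28, 7 of 33 and 8 of 22 *Pbx3*-positive cells. That is 28.6%, 21.2% and 36.4%, against 11.7%, 11.6% and 17.3% of the cells without *Pbx3*, higher in each mouse. *Meis2* was in 7 of 28, 3 of 33 and 0 of 22 of the same cells, against 12.1%, 2.49% and 3.06%. It was thus higher in mice 1 and 2 and lower in mouse 3. *Pbx4* was higher in each mouse in the unthinned split, at 0.339, 0.130 and 0.163 against 0.114, 0.120 and 0.0909, on 7, 12 and 13 UMIs (0.70, SE 0.34, adjusted p = 0.331). In thinned cells *Pbx4* was in 3 of 28, 0 of 33 and 1 of 22 *Pbx3*-positive cells, higher in mice 1 and 3 only. *Pknox1* was at −0.56 (adjusted p = 0.257), and *Meis3*, *Pbx2* and *Pknox2* were not called either, at 0.07, −0.10 and −0.67. Of the inhibitory list 4 of 5 genes were lower in Pbx3-positive cells, *Nos1* by −1.05. Of the excitatory list 1 of 5 was higher, *Penk* by 0.91, and 1 was lower, *Tac1* (tachykinins) at −0.53, with a median of −0.08.

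**Figure D4:**
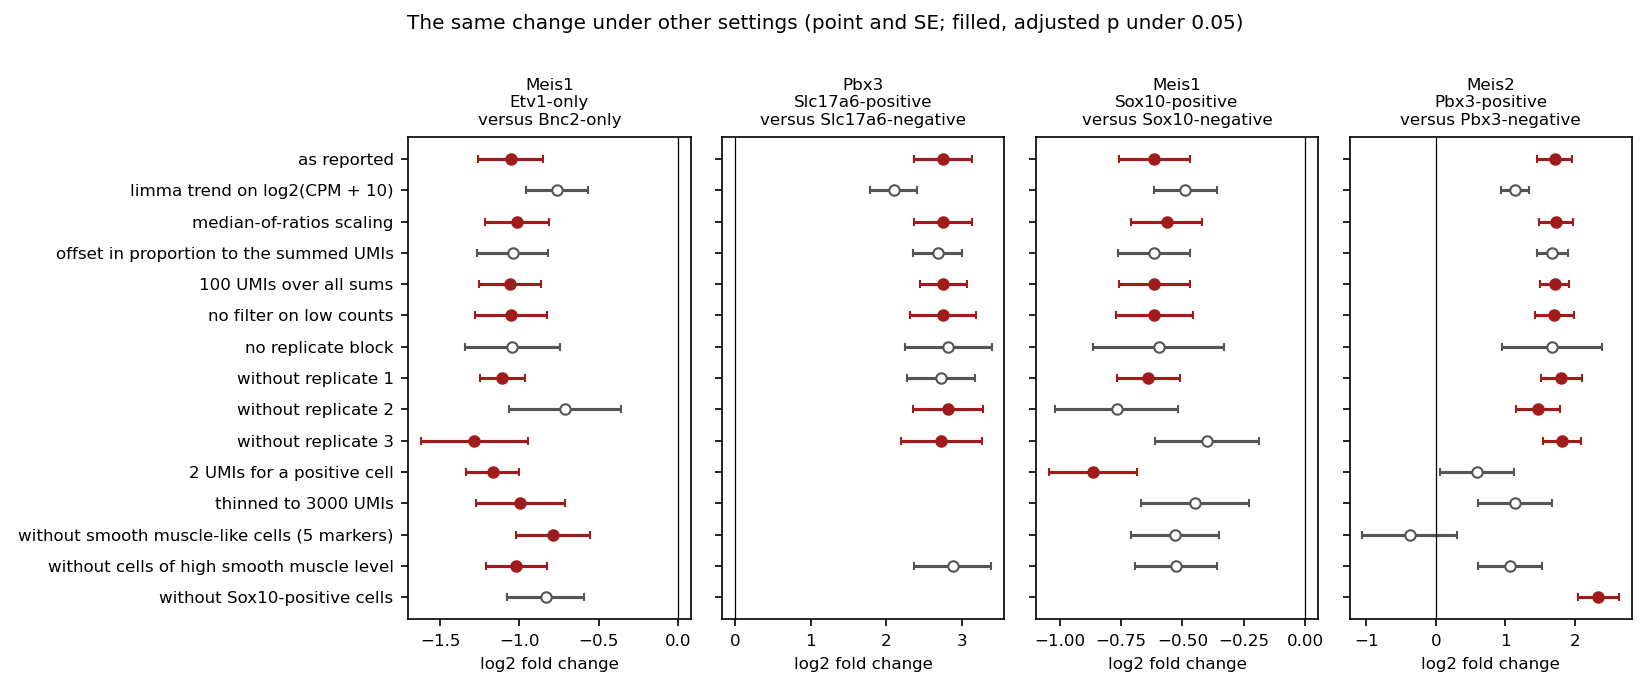
Log2 fold change (point and SE) of 4 called changes as reported and under each other setting that could be fitted, filled where the adjusted p is under 0.05. The fit of *Pbx3* without cells of high smooth muscle level and that of *Meis1* in Etv1-only cells at 2 UMIs also lack mouse 1. *Pbx3* in Slc17a6-positive cells stays between 2.09 and 2.87, and *Meis2* in Pbx3-positive cells crosses 0 without the cells that hold 5 or more smooth muscle markers.

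*Meis2*, which is also used by smooth muscle of the gut, followed the smooth muscle markers. This comparison was added after the data had been seen. *Meis2* was in 44 of 82, 27 of 46 and 13 of 31 cells of high smooth muscle level in mice 1, 2 and 3, or 53.7%, 58.7% and 41.9%. In the other cells it was in 7 of 272, 45 of 1004 and 28 of 625, or 2.57%, 4.48% and 4.48%, and the exact 95% intervals lay apart in each mouse. Its level was 2.36, 1.37 and 0.890 per 10000 against 0.0701, 0.0507 and 0.0648. The ranges lay far apart, with a change of 4.51 (SE 0.31, limma voom adjusted p = 5.96e-06, higher in 3 of 3 mice).

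It was the only member called there, 1 of 8, beside 4.23% of all genes tested (547 higher and 83 lower). Of the other settings 10 of 11 kept the call (that without Sox10-positive cells also lacks mouse 3), and the proportional offset gave 4.49 (adjusted p = 0.0534). Median-of-ratios scaling moved the median change of all genes from −0.05 to 0.14 and that of *Meis2* to 4.71. Among Sox10-negative cells alone *Meis2* was at 2.92, 1.78 and 1.61 in cells of high smooth muscle level and at 0.0962, 0.0395 and 0.0872 in the rest. *Meis1* (0.44, adjusted p = 0.49) and *Pbx3* (0.86, adjusted p = 0.275) were not called, and *Pbx2* was at 0.104, 0.308 and 0.212 against 0.508, 0.280 and 0.269 (−0.59, adjusted p = 0.521). The neuron list stood at 35.9, 55.0 and 60.9 per 10000 in these cells and at 78.9, 62.5 and 59.2 in the others, and 5 of 6 fibroblast markers rose.

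Ordered by mean level over the 5 groups, *Pbx3* was highest in Slc17a6-positive cells, at 1.19 ± 0.82 per 10000 (SD, n = 3 mice), and the gap to Bnc2-only cells (0.241 ± 0.338) was larger than either SD. *Meis1* was at 0.932 ± 0.595 in Slc17a6-positive and 0.770 ± 0.147 in Bnc2-only cells, which did not differ beyond their spread. The gap from there to Etv1-only cells (0.420 ± 0.138) did, while Sox10-positive (0.412 ± 0.054) and Nmu-positive cells (0.336 ± 0.191) followed without such a gap. *Pknox1* ran from 0.622 ± 0.080 in Bnc2-only to 0.358 ± 0.059 in Sox10-positive cells, and *Pbx4* from 0.132 ± 0.013 in Sox10-positive to 0.063 ± 0.011 in Bnc2-only cells, in both without a gap between neighbours beyond their spread. *Pbx2* had 1 such gap, between Etv1-only (0.307 ± 0.084) and Slc17a6-positive cells (0.202 ± 0.056), which came last. *Meis2*, *Meis3* and *Pknox2* had none, and the mean of *Meis2* in Bnc2-only cells (0.549 ± 0.801) was set by mouse 1 (1.47, against 0.114 and 0.0583).

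Likeness of pattern was ranked over the 15 sums of 3 mice and 5 groups, centred within each mouse, among 9139 genes with 200 or more UMIs. These sums share cells between groups and differ in size, so Pearson's r is a description. *Usp34*, *Ireb2* and *Wscd2* were most like *Meis1* (r from 0.923 to 0.939). *Ppp1r1a*, *Ece1* and *Abraxas2* were most like *Pbx3* (0.939 to 0.95), and *Grem1*, *Rbpms* and *Nusap1* most like *Meis2* (0.947 to 0.962). For *Meis3* they were *Max*, *Abcf3* and *Cd200*, for *Pbx2* *Taf1d*, *Prmt5* and *Yars2*, for *Pknox1* *Nbea*, *Tbc1d19* and *Ufl1*, and for *Pknox2* *Zmiz1*, *Ide* and *Mxra7*. Between members the highest r was that of *Meis1* with *Pknox1* (0.80), and the lowest that of *Meis2* with *Meis3* (−0.79).

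The other TALE homeobox genes were Tgif, Irx and Mkx genes. *Tgif1* and *Tgif2*, repressors of TGF-beta and retinoid signalling, were in 147 and 117 cells. *Irx3* and *Irx5* were in 6 cells each, *Irx6* in 1, *Mkx* in 16, and *Irx1*, *Irx2* and *Irx4* in none of 2060. Both Tgif genes were higher in Sox10-positive cells in each mouse. *Tgif2* was at 0.104 ± 0.011 (SD, n = 3 mice) against 0.046 ± 0.030 per 10000, a change of 1.45 (SE 0.34, limma voom adjusted p = 0.0141), and *Tgif1* at 0.196 ± 0.173 against 0.096 ± 0.097, a change of 1.18 (SE 0.28, adjusted p = 0.0143). *Irx3* was called in the Slc17a6 comparison (limma voom adjusted p = 0.0359) on 10 UMIs in all, below the 100 UMIs at which simulated sums gave few false calls.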

How the data were processed

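Single-cell RNA-seq was measured in 3 libraries, 1 per mouse (10x Chromium). The authors counted reads with Cell Ranger against mm10, kept the cells they took for neurons and deposited 1 table of natural log values, the ln of 1 plus a gene's UMIs scaled to 10000 in each cell. No version of Cell Ranger and no annotation is given in the sources used here. The log keeps whole molecules: with the smallest value of a cell above 0 read as 1 UMI, 100% of 6435281 values came out whole within 1e-06, and 0 columns belonged to no sample. Totals include genes that the table does not list, a median of 12.7% of a cell's UMIs.

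UMIs were summed over the cells of a group in each mouse (10 or more cells in both groups). The sums were tested with limma voom (limma 3.58.1, R 4.3.3), scaled by total UMIs, with the mouse as a block because both groups come from the same animal. Genes needed 10 or more UMIs over the sums, and p-values were adjusted by Benjamini-Hochberg. Genes that define a group were not tested in its comparison. There were 3 animals and so 3 pairs. The test is moderated, which means that each gene's variance is drawn towards that of all genes tested. A small p-value thus rests on more than the spread among 3 mice and does not measure that spread alone. The steps were tested on simulated sums with known changes, and that of the Slc17a6 comparison gave many false calls at 10 UMIs and few at 100, so both are given there. In the simulated sums a gene had the same mean in every mouse, so real differences between mice were not covered. Thinning drew 3000 UMIs per cell and left out 78, 55 and 45 shallower cells of mice 1, 2 and 3. Groups by detected genes were then set anew from the thinned UMIs, so some cells changed group. Doublets were not called.

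The genes and lists were chosen with earlier results of these data known. The members are named in every comparison. Of the identity lists the counts called and 1 or 2 examples are given, of the other TALE genes those called or detected, and for each member the 3 genes of most alike pattern, except that those of *Pbx4* are not reported here. Lists were inhibitory, excitatory and sensory neuron genes, and markers of neurons, glia, smooth muscle, fibroblasts, immune and endothelial cells and interstitial cells of Cajal. Summed immune, endothelial and Cajal markers reached at most 0.35, 0.07 and 0.24 per 10000 over all cells of a mouse, and fibroblast markers 14.8, 3.30 and 2.52. Alternatives were 2 UMIs for a positive cell, thinning, limma trend on log2(CPM + 10), median-of-ratios scaling, no filter, no block, each mouse left out, and cells without *Sox10* or without smooth muscle markers. The proportional offset, the minimum of 100 UMIs, the smooth muscle level over 50 per 10000 and the comparison built on it were added after seeing the data. Coordinates are those of GENCODE M21 on GRCm38, and Cell Ranger and mm10 are as the submitters' processing notes name them.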

Additional observations from a re-analysis of the deposited data

How the results depend on the processing

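The number of genes called depended on the setting. Called were 808 genes between Etv1-only and Bnc2-only cells, 156 for *Nmu*, 439 for *Slc17a6*, 1547 for *Sox10*, 566 for *Pbx3* and 630 for smooth muscle level. In the same order, with no value where the count was within 1.5 times, limma trend gave 24, 0, 0, 510, 14 and 231, the proportional offset 14, 0, 0, 705, 0 and 0, and the fit with no replicate block 164, 0, 0, 0, 0 and 166. Where these gave 0, between 675 and 3324 genes had an unadjusted p under 0.05. No filter gave 1783, 4391, 8071, 5080 (*Pbx3*) and 4804 (smooth muscle level), and median-of-ratios scaling 969 for *Slc17a6*. With 2 UMIs for a positive cell 2785 (*Etv1* and *Bnc2*), 577 (*Nmu*) and 22 (*Pbx3*) were called, and in thinned cells 666 (*Sox10*), 14 (*Pbx3*) and 361 (smooth muscle level). Without cells of 5 smooth muscle markers there were 930 (*Sox10*) and 239 (*Pbx3*), without those of high smooth muscle level 1773 (*Etv1* and *Bnc2*), 0 (*Slc17a6*, with 3195 at an unadjusted p under 0.05) and 330 (*Pbx3*), and without Sox10-positive cells 235 (*Nmu*). The fits of *Etv1* and *Bnc2* at 2 UMIs and of *Slc17a6* without high smooth muscle level also lost mouse 1, which had fewer than 10 cells left in a group, and leaving out that mouse alone gave 3052 and 0. With 1 mouse left out the counts ran from 116 to 3052, 147 to 222, 0 to 294, 447 to 2768, 198 to 618 and 318 to 1002. The *Slc17a6* comparison could not be fitted at 2 UMIs, thinned, without cells of 5 smooth muscle markers or without Sox10-positive cells, as fewer than 2 mice kept 10 cells.

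Of 594 alternative values of the members' changes, 538 kept the side of the threshold, 43 lost a call, 12 gained one and 1 called change turned its sign (*Meis2* in Pbx3-positive cells, −0.38). Most of these are of changes that were not called as reported. The 7 called changes had 89 alternative values, of which 45 kept the call and 44 did not. The sign also changed in 73 values of members called in neither fit. The mouse block changed every call of a member but that of *Meis2* with smooth muscle level. The cause of these moves was not tested.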
